A study of Drosophila melanogaster with 9 samples.

Results

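The intron retention index is the RPKM of an intron divided by the RPKM of its transcript in the same library, given here as a percentage. RPKM is the number of reads per kilobase of length, scaled to the library's total. This report is about the introns that were already abundant in polyA-selected RNA of control Drosophila ovarian somatic cells (OSCs). They are the listed introns whose gene averaged more than 10 RPKM over the siGFP libraries and whose index exceeded 25% in both siGFP libraries. This rule took 295 of 60779 listed introns, out of 28666 introns in genes above 10 RPKM. Many of the 295 are alternative forms of each other that share reads. Joined where they overlap, they form 173 loci in 155 genes, and each locus is represented below by its form with the most siGFP reads. The siGFP values chose these introns, so their high siGFP index is a description and not a finding, and every difference from siGFP cells below rests partly on the values that chose them. The difference between siTsu and siAcn cells is taken between libraries that the rule did not use, although its test below also takes its estimate of the spread from the siGFP libraries.

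OSCs are a cultured cell line of the somatic follicle cell lineage of the ovary. The cells were transfected with siRNAs against tsu (siTsu, 2 libraries), against Acn (siAcn, 2 libraries) or against GFP as the control (siGFP, 2 libraries). All groups otherwise share the same cell line, growth medium and polyA selection, and transient depletion leaves some of the targeted transcript. The labels describe the libraries of a group as repeats without saying that they are separate cultures, whereas the methods call them biological duplicates.

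Splicing removes introns in the nucleus, and an intron that stays in a polyadenylated transcript can hold the RNA back in the nucleus or expose it to decay if it enters translation. The exon junction complex (EJC) is placed on spliced RNA just upstream of exon junctions. tsu encodes its core subunit Y14. Acn encodes Acinus, a subunit of the ASAP complex, which joins the EJC as a peripheral part and acts in splicing. Reads in an intron can also come from a further transcript that begins or ends inside it, and an RPKM ratio cannot tell these sources apart.

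The tsu transcript was at 9.77 and 9.16 RPKM in the siTsu libraries, against 128.4 and 111.6 RPKM in the siGFP libraries. The Acn transcript was at 16.8 and 16.6 RPKM in the siAcn libraries, against 98.1 and 140.4 RPKM in the siGFP libraries. The intron values correspond to whole reads within 0.1 read, on a scale of 15.9 and 11.5 M reads for siTsu, 18.7 and 13.4 M for siAcn and 28.8 and 30.4 M for siGFP. Whether the ends of a read pair were counted separately is not given in the sources used here, so the read numbers below may count each end. Every retained intron had at least 33 reads in the 2 siGFP libraries together. The 10 listed markers of OSCs and follicle cells all exceeded 10 RPKM in siGFP cells, and their summed level was 1090 and 789 RPKM in siTsu, 1584 and 1189 RPKM in siAcn and 1996 and 1647 RPKM in siGFP libraries. These markers include piwi, whose RNA the authors report as reduced and misspliced after either depletion, so the sum does not follow cell type alone. All 3 measured hemocyte markers and both measured muscle markers stayed under 10 RPKM. The hemocyte markers summed to 16.1 to 19.9 RPKM in the knockdown libraries and 11.9 to 12.1 RPKM in the siGFP libraries. The part of these shifts in the results was not tested.

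The retained introns were longer than the usual intron of an expressed gene. Their median length was 889 nt, with quartiles at 299.5 and 1521.5 nt, against 102 nt over all introns of genes above 10 RPKM. Taken per locus, the median was 769 nt. Most fly introns are very short. Introns of up to 70 nt made up 40.1% of the introns of expressed genes but 18 of the 295 retained introns (6.10%). The index divides by the whole listed interval, which includes a stretch of exon at both ends. These ends take up the largest share of the interval in short introns, whose index may be lowered where the ends hold few reads. The shortage of short introns may therefore be partly built into the rule, and its size was not tested. Introns above 200 and up to 2000 nt made up 63.1% of the retained introns, against 27.6% of the introns of expressed genes. Introns above 10% of their transcript in at least 1 of the 6 libraries, which are the 2848 introns tested below, were also long, with a median of 456 nt over the 2553 that are not retained by the rule. The longest retained intron was the last intron of br, which encodes an ecdysone-induced zinc finger transcription factor, with 17057 nt on chromosome X (1531368 to 1548424, dm3). It was followed by the 15969 nt intron of Ir40a and by the 7116 nt last intron of Atg5, which encodes an autophagy protein. The 3 shortest loci were those of CG31955 with 52 nt and of CG10195 and Kdm4B with 53 nt each.

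The retained introns sat in transcripts of moderate level. The host genes' level in siGFP cells had a median of 24.9 RPKM over the loci and reached 318.8 RPKM. The median was 33.3 RPKM over the introns of expressed genes and 24.7 RPKM over the other tested introns, close to that of the loci. This level is also the denominator of the index and part of the rule. The place of the retained introns in the gene was close to the background. The first intron accounted for 25.4% of the loci and 24.9% of the introns of expressed genes, and the last intron for 21.4% and 17.8%. Chromosome X held 24.9% of the loci and 18.4% of these introns. The small chromosome 4 held 9 loci (5.20%), against 1.71% of the introns of expressed genes and 4.07% of the other tested introns.

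Overlap with other listed introns was the rule. Of the 295 retained introns, 240 (81.4%) overlapped another listed intron of the same gene, against 37.8% of the introns of expressed genes and 68.9% of the other tested introns. The share over the 295 counts retained forms that overlap each other. Of the 173 loci, in which overlapping retained forms are joined, 118 (68.2%) overlapped another listed intron of the gene. This is close to the share of the other tested introns, which were not joined. Of the 295, 118 held another listed intron of the gene inside and 180 lay inside a longer one. Introns of another gene overlapped 8 of them on the same strand and 11 on the opposite strand. The loci held 1 retained form in 104 cases and more in 69. The genes with the most retained rows were ewg and unc-13 with 8 each, CG12090 with 7, sw with 6 and CG31211 with 5. ewg encodes a transcription factor of the NRF-1 family, and its 8 forms were alternatives at 1 place in the gene. The 5 forms of CG31211, in contrast, fell into 4 loci. sw, which encodes the dynein intermediate chain, had its 6 forms in 1 locus, and that locus had an index of 20.6% and 18.7% in siTsu, 32.9% and 28.6% in siAcn and 28.4% and 25.9% in siGFP libraries, with both siTsu libraries below the others.

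The annotation added exons to many of these intervals. For 281 of the 295, the gene, strand and intron length picked out a single intron of a later annotation, from which only such features and no coordinates were taken. Exon sequence of another isoform of the same gene lay in 129 of these 281 (45.9%), against 28.7% of the introns of expressed genes and 41.9% of the other tested introns. A whole internal exon lay in 39 (13.9%), against 7.77% and 14.6%. A transcript end lay in 26 (9.25%), against 2.54% and 6.45%, and a transcript start in 18 (6.41%), against 11.3% and 11.6%. A transposable element was annotated in 7, and a small RNA gene in 0. For 139 (49.5%) no annotated exon of any gene lay inside. Taken per locus, exon sequence of the same gene lay in 70 of 166 matched loci (42.2%), close to the share of the other tested introns.

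Most introns that lie wholly in an exon gave no intron reads in these files. Of 1248 introns of expressed genes that lie wholly in an exon of their own gene, 1187 (95.1%) had no read in either siGFP library, against 26.9% of the introns without such an exon. Within a locus, 2 nested forms can be set against each other. The shortest form of the last intron of CG17754, with 703 nt, had 1305 siGFP reads, and the 575 nt that the next form adds had 0. In Mhcl, which encodes an unconventional myosin, a form of 516 nt had 1550 siGFP reads and the 732 nt that the longer form adds had 3. In unc-13, which encodes a protein that primes synaptic vesicles for release, the reads continued, with 157 reads per 100 nt in a form of 237 nt and 179 reads per 100 nt in the 774 nt added to it. Of 59 nested pairs of retained forms that share an end and differ by at least 50 nt, 25 had at most 3 siGFP reads in the added stretch. Short added stretches that the later annotation gives as exon could hold reads, as in CG34449, where the 14 nt added to the form of 808 nt had 9 siGFP reads. The index divides by the whole interval, so it is lower for a form that spans a stretch without reads, and forms of 1 locus can differ in index with the same reads.

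**Figure D1:**
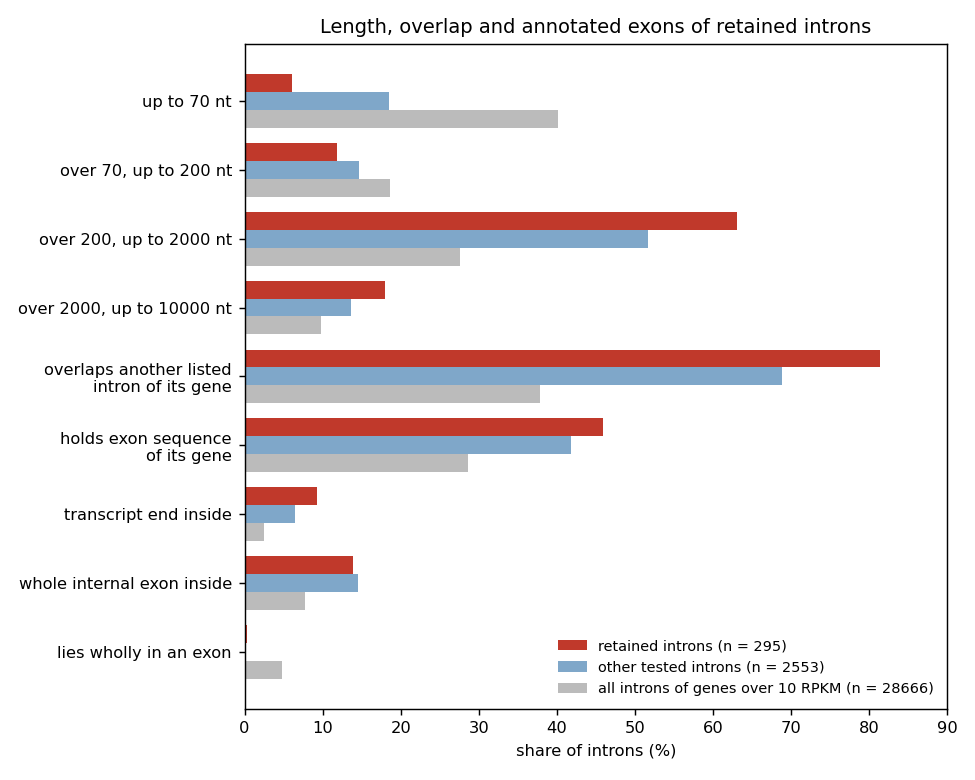
Shares of introns (%, horizontal axis) by length, by overlap with another listed intron of the gene and by annotated features, for 295 retained introns, for the 2553 other tested introns and for 28666 introns of genes above 10 RPKM in siGFP cells (annotated features over those matched to the annotation). The share that overlaps another listed intron is 81.4% of the retained introns, 68.9% of the other tested introns and 37.8% of all introns of expressed genes. With overlapping retained forms joined, it is 68.2% of the 173 loci.

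The 12 loci with the highest siGFP index, among those with at least 50 reads in each siGFP library, all had a mean index above 100%, so that the intron had more reads per kilobase than the transcript. Over all loci, 12 were above 100% in both siGFP libraries, and 8 were above 100% in all 6 libraries. This ranking uses the form with the most siGFP reads at each locus and depends on that choice. The highest mean siGFP index was 237.7% among the forms shown and 293.9% among all 295 retained introns. The highest of the forms shown was an intron of 154 nt in Ten-a (X, 12098018 to 12098171), which encodes a teneurin, a cell surface protein of synaptic partner matching. Its index was 201% and 161.5% in siTsu, 264% and 321.1% in siAcn and 162% and 313.5% in siGFP libraries, so that the siGFP libraries differed from each other as much as the groups did. In cert, which encodes the ceramide transfer protein, an intron of 3020 nt (3L, 8277394 to 8280413) was at 158% and 96% in siTsu, 184% and 136% in siAcn and 229% and 221% in siGFP libraries. Both knockdowns lay below both siGFP libraries, but neither difference passed the test described below (adjusted p = 0.216 and 0.453 from limma).

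Several of these loci were above 100% in all 6 libraries. In vn, which encodes a neuregulin-like ligand of the EGF receptor, the last intron of 3176 nt was at 131% and 115% in siTsu, 121% and 113% in siAcn and 124% and 131% in siGFP libraries. In Ect4, which encodes the fly SARM protein of axon degeneration, the last intron of 1689 nt was at 155% and 117% in siTsu, 128% and 112% in siAcn and 139% and 141% in siGFP libraries. The last intron of rok, which encodes a protein kinase of the actomyosin cytoskeleton and has 322 nt with no annotated exon, was at 159% and 113% in siTsu, 155% and 167% in siAcn and 112% and 163% in siGFP libraries. A transcript end was annotated inside the introns of vn, Ect4, Mhcl and CG17754, which are the last introns of their genes. The CG17754 intron was at 215% and 235% in siTsu, 223% and 177% in siAcn and 117% and 174% in siGFP libraries. In Mhcl, exon sequence covered 73.7% of the interval, and the index was 150% and 174% in siTsu, 170% and 156% in siAcn and 110% and 152% in siGFP libraries.

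Of the other 5 loci among the 12, Caps could not be matched to the annotation and 4 had no exon of their gene inside. The first intron of nAChRbeta2, 225 nt in a gene for a nicotinic acetylcholine receptor subunit, was at 185% and 246% in siTsu, 179% and 188% in siAcn and 152% and 229% in siGFP libraries. An intron of 2073 nt in NFAT, which encodes a transcription factor of the NFAT family, was at 96.6% and 64.2% in siTsu, 119% and 88.8% in siAcn and 141% and 117% in siGFP libraries. Both siTsu libraries lay below both siGFP libraries there, without passing the test (adjusted p = 0.245 from limma). The first intron of CG10359, with 582 nt, was at 193% and 239% in siTsu, 101% and 225% in siAcn and 84.2% and 170% in siGFP libraries, and replicate 2 was the higher in all 3 groups. The intron of 340 nt in CG11456 was at 178% and 128% in siTsu, 105% and 94.8% in siAcn and 97.2% and 136% in siGFP libraries.

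**Figure D2:**
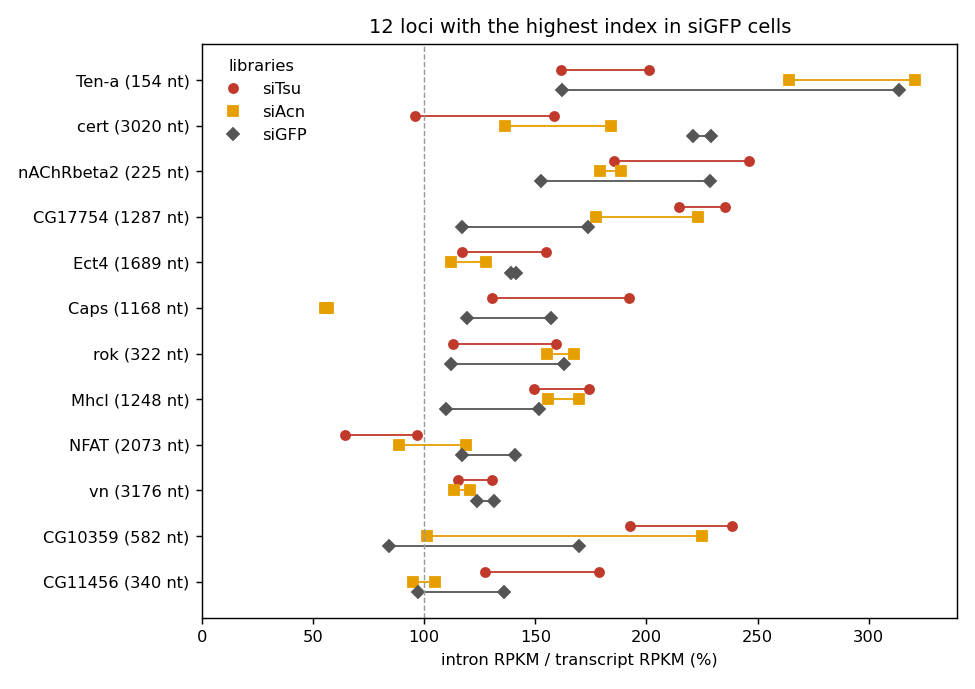
Index (%, horizontal axis) of the 12 loci with the highest mean index in siGFP cells, 1 point per library for siTsu, siAcn and siGFP, joined within a group. The dashed line marks 100%, and Caps stands apart with 56.4% and 55.2% in siAcn libraries against 157% and 119% in siGFP libraries.

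Most host genes held retained introns at only 1 place, but other introns of these genes were often above the background. For 166 of the 173 loci the gene had other listed introns outside the locus. The median index of those not retained by the rule was 0.708% in siTsu, 0.936% in siAcn and 1.12% in siGFP cells at the median locus. Over all introns of expressed genes, pooled and not taken per locus, the median in siGFP cells was 0.602%. Per library, this pooled median was 0.129% and 0% in siTsu, 0.326% and 0% in siAcn and 0.532% and 0.499% in siGFP libraries. It was thus also lower in the knockdown libraries, which had fewer reads, and nothing is read from the lower values there. In 92 of the 166 (55.4%), none of the other introns that are not retained by the rule reached a mean of 10% in siGFP cells, and in the rest at least 1 did. Retained introns in more than 1 place of a gene were found in 12 of the 155 genes, among them unc-13 with 4 loci and CG31211 with 4 loci. At the threshold, the weaker siGFP library stood at 25.1% for CG33062 and alpha-Man-I and 25.3% for CG14619 just inside, and at 24.9% for Atg18 and CaMKII and 24.99% for a longer form of the br intron just outside.

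Most of the loci stayed retained in the knockdowns. The median index over the 173 loci was 42.6% and 40.3% in siTsu, 38.3% and 40.4% in siAcn and 38.9% and 42.8% in siGFP libraries. The index stayed above 25% in both siTsu libraries for 130 loci, in both siAcn libraries for 130 loci and in all 4 knockdown libraries for 111 loci. In 5 loci it was under 10% in at least 1 knockdown library. The ratio of the mean index in siTsu to that in siGFP cells had a median of 0.972 over the loci, with quartiles at 0.743 and 1.24. For siAcn against siGFP the median was 0.922, with quartiles at 0.707 and 1.17. The ratio was within 1.5-fold of 1 for 70.5% of the loci in siTsu and 73.4% in siAcn cells. Among the other tested introns, which have fewer reads, the shares were 51.7% and 52.6%. Those introns needed over 10% in at least 1 of the 6 libraries, so a high knockdown value alone could admit them. Such a value moves the ratio away from 1, so the lower shares do not show that the retained loci were steadier. The siGFP libraries themselves differed, with replicate 2 above replicate 1 in 109 of the 173 loci.

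Single introns were tested with limma on the logarithm of the index, after adding 0.1 RPKM to both intron and transcript, over all 2848 tested introns, with Benjamini-Hochberg adjustment at 0.05 and 1 fit of the 3 groups. Between siTsu and siGFP cells, 10 of the 295 retained introns were higher and 1 was lower, where 2.56% of all tested introns were higher and 0.211% lower. The 10 belong to 5 genes, tho2, Ir40a, CG34449, Sesn and RhoGAP19D. Without adjustment, 32 were higher and 40 lower at a p under 0.05, where 12% and 6.85% of all tested introns were. Between siAcn and siGFP cells, 4 were higher, in Sesn and RhoGAP19D, and 0 were lower, where 1.33% of all tested introns were higher and 0% lower. Without adjustment these numbers were 28 and 46, against 11.1% and 5.86% of all tested introns. The rule used the siGFP libraries, so nothing is read from these shares. Between siTsu and siAcn cells, 3 were higher, in tho2 and unc-13, and 0 were lower, where 0.281% of all tested introns were higher and 0.246% lower. Without adjustment 35 were higher and 22 lower, against 8.85% and 8.67% of all tested introns.

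These calls rest on 2 libraries a group. Without 1 of the 6 libraries, the siTsu against siGFP calls fell to between 0 and 2 introns, both of tho2 where any was left, and all calls of the other comparisons were lost whichever library was left out. With every intron that had reads in the test (no minimum of 10%), or without the trend in limma's estimate of the spread, 0 retained introns passed in any of the 3 comparisons. With genes above 20 RPKM, the retained introns called were 14 higher and 7 lower in siTsu against siGFP cells and 8 higher and 6 lower in siAcn against siGFP cells, so the near absence of lower calls depends on that filter. With the siGFP libraries left out of the fit, the siTsu against siAcn differences of tho2 and unc-13 missed the threshold (adjusted p = 0.0514 and 0.0612 from limma).

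**Figure D3:**
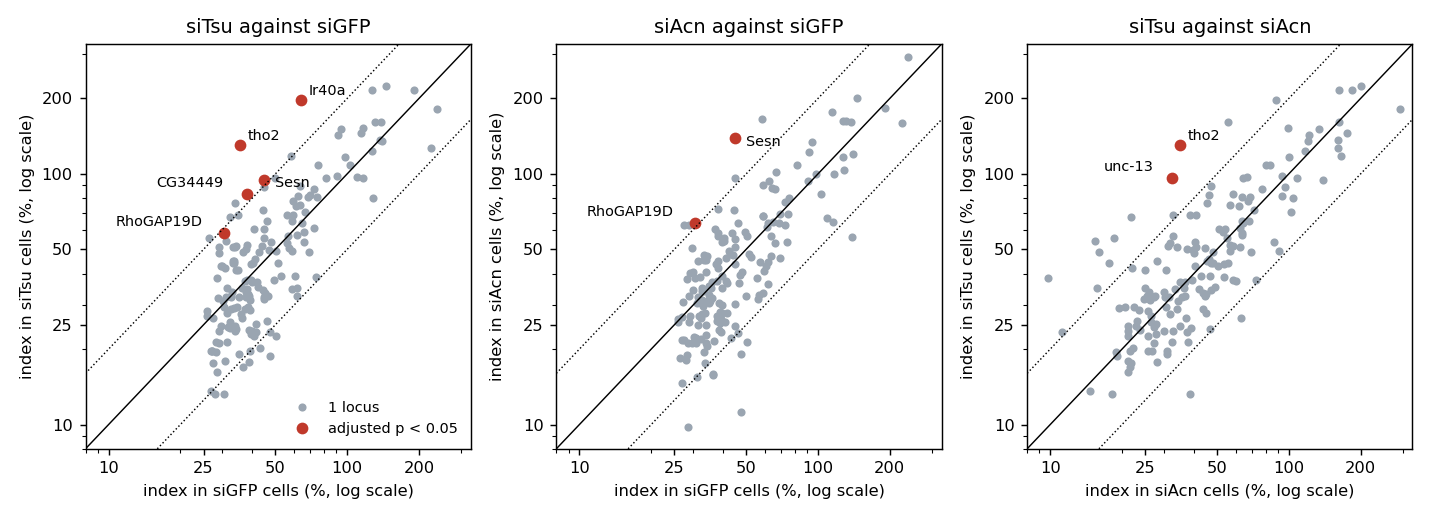
Mean index of the 173 loci in siTsu against siGFP, siAcn against siGFP and siTsu against siAcn cells (%, log scales, the group named first on the vertical axis). Red points passed limma at an adjusted p under 0.05, the solid line marks equality and the dotted lines a difference of 2-fold; in siTsu against siGFP cells 8 loci lie above the upper 2-fold line, among them tho2, Ir40a, CG34449 and Sesn, and 8 lie below the lower one.

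tho2, which encodes a subunit of the THO complex that couples transcription to mRNA export, had the largest ratio of siTsu to siGFP index among the retained introns. Its retained intron has 1474 nt on the minus strand of chromosome 2L (2138156 to 2139629), and a second form of 1471 nt differs by 3 nt at one end. The index was 131% and 129% in siTsu, 35.8% and 34.4% in siAcn and 36.1% and 35.1% in siGFP libraries. The siTsu libraries were far above the other 4, and the siAcn and siGFP libraries overlapped. The ratio of mean index in siTsu to siGFP was 3.65. On the log2 scale limma gave a rise of 1.86 with a standard error of 0.18 (adjusted p = 0.0045), and the log2 difference between siTsu and siAcn was 1.88 (adjusted p = 0.0188 from limma). The intron itself was at 26.6 and 24.2 RPKM in siTsu, 12.95 and 11.2 RPKM in siAcn and 14.2 and 12.1 RPKM in siGFP libraries. The tho2 transcript was at 20.3 and 18.8 RPKM in siTsu, 36.2 and 32.6 RPKM in siAcn and 39.2 and 34.5 RPKM in siGFP libraries. The transcript fell in siTsu cells (log2 change -0.88, adjusted p = 0.0283 from limma), while the rise of the intron level alone did not pass (log2 change 0.95, adjusted p = 0.0559 from limma).

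Ir40a encodes an ionotropic receptor that is known for humidity sensing in the antenna. Its retained intron of 15969 nt lies on 2L (22196756 to 22212724), and annotated transposable elements cover 61.1% of it. The index was 215% and 180% in siTsu, 82% and 94% in siAcn and 64.2% and 64.1% in siGFP libraries. The siTsu libraries lay above all others, and the siAcn libraries above the siGFP libraries. The log2 rise in siTsu cells was 1.60 with a standard error of 0.22 (adjusted p = 0.0193 in limma), and in siAcn cells the change was 0.45 (adjusted p = 0.347 in limma). The difference between the knockdowns did not pass (log2 difference 1.15, adjusted p = 0.0676 from limma). The intron was at 17.4 and 20.7 RPKM in siTsu, 10.7 and 17.4 RPKM in siAcn and 5.46 and 10.9 RPKM in siGFP libraries, and the transcript was at 8.09 and 11.5, at 13.1 and 18.6 and at 8.50 and 17.0 RPKM in these groups, with overlapping values.

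CG34449 was the gene in which the retained intron and the transcript both rose after tsu depletion. Its first intron of 822 nt (X, 9249212 to 9250033) had 2 further retained forms of 808 and 936 nt. The index was 81.5% and 84.8% in siTsu, 57.8% and 58.6% in siAcn and 38.9% and 37.1% in siGFP libraries, and the 3 groups did not overlap. By limma the log2 rise in siTsu cells was 1.12 with a standard error of 0.18 (adjusted p = 0.0275), and that in siAcn cells, 0.61, did not pass (adjusted p = 0.149 from limma). The intron level was 47.6 and 61.4 RPKM in siTsu, 17.8 and 27.1 RPKM in siAcn and 6.54 and 10.1 RPKM in siGFP libraries. Its log2 change of 2.72 in siTsu cells passed the test (adjusted p = 0.0028 from limma). The transcript was at 58.4 and 72.5 RPKM in siTsu, 30.8 and 46.2 RPKM in siAcn and 16.8 and 27.1 RPKM in siGFP libraries, with a log2 change of 1.56 in siTsu cells (adjusted p = 0.0391 from limma).

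Sesn, which encodes sestrin, a stress-induced inhibitor of TOR signalling, had a first intron whose index rose in both knockdowns. The form of 562 nt (2R, 19601642 to 19602203) had an index of 90.6% and 98.5% in siTsu, 146% and 131% in siAcn and 40.6% and 49.4% in siGFP libraries. All 4 knockdown libraries lay above both siGFP libraries, and the siAcn libraries were the highest. By limma the log2 rise was 1.08 in siTsu cells (adjusted p = 0.0495) and 1.62 in siAcn cells (adjusted p = 0.019), each with a standard error of 0.21, and siTsu against siAcn missed the threshold (log2 difference -0.55, adjusted p = 0.244 from limma). The transcript differed widely within groups, with 19.6 and 8.79 RPKM in siTsu, 71.2 and 18.6 RPKM in siAcn and 92.6 and 52.1 RPKM in siGFP libraries. The intron level was 17.8 and 8.66, 103.7 and 24.4, and 37.6 and 25.7 RPKM in these groups, and passed in neither knockdown (adjusted p = 0.21 and 0.605 from limma). In siTsu libraries both the intron and the transcript were below both siGFP libraries, so the index rose there without a rise of the intron level.

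RhoGAP19D, a gene for a GTPase-activating protein, had a first intron of 1051 nt (X, 20380495 to 20381545) with no annotated exon. Its index was 56.6% and 59.7% in siTsu, 62.7% and 64.4% in siAcn and 31.4% and 29.6% in siGFP libraries. Both knockdowns were above siGFP cells by a similar size, with log2 changes of 0.92 in siTsu (adjusted p = 0.0493 from limma) and 1.05 in siAcn cells (adjusted p = 0.0458 from limma). The intron was at 12.2 and 8.98 RPKM in siTsu, 17.0 and 13.2 RPKM in siAcn and 8.86 and 7.94 RPKM in siGFP libraries, and its level passed in neither knockdown.

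The 1 retained intron that was lower in siTsu cells was a form of 1201 nt in the last intron of CG32521 (X, 21080906 to 21082106). Its index was 18.2% and 16.4% in siTsu, 22.7% and 22.8% in siAcn and 32.9% and 38.9% in siGFP libraries. By limma the log2 change was -1.05 in siTsu cells with a standard error of 0.21 (adjusted p = 0.0495) and -0.65 in siAcn cells (adjusted p = 0.171). The intron level fell in siTsu cells to 20.5 and 14.5 RPKM, against 57.0 and 52.7 RPKM in siGFP libraries (adjusted p = 0.0195 from limma). The longer form of 1808 nt, with the most siGFP reads of the locus, just missed the threshold (adjusted p = 0.064 from limma).

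unc-13 lies on chromosome 4, and its 4 retained loci did not move together. The intron of 988 nt (4, 892852 to 893839) had an index of 108% and 85.2% in siTsu, 33.1% and 31.9% in siAcn and 47.6% and 51.8% in siGFP libraries. The groups did not overlap, with siTsu the highest and siAcn the lowest. The log2 difference between siTsu and siAcn was 1.55 with a standard error of 0.20 (adjusted p = 0.0369 in limma), whereas neither knockdown passed against siGFP cells (adjusted p = 0.0642 and 0.189 from limma). The locus with the most forms, 5766 nt long, was at 69% and 86.6% in siTsu, 62.8% and 72.5% in siAcn and 50.2% and 68% in siGFP libraries. The intron of 69 nt was at 76.4% and 116% in siTsu, 63.6% and 65.3% in siAcn and 99.6% and 133% in siGFP libraries. The first intron of 3002 nt was at 52.8% and 60.5% in siTsu, 33.7% and 32.0% in siAcn and 50.1% and 63.2% in siGFP libraries.

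**Figure D4:**
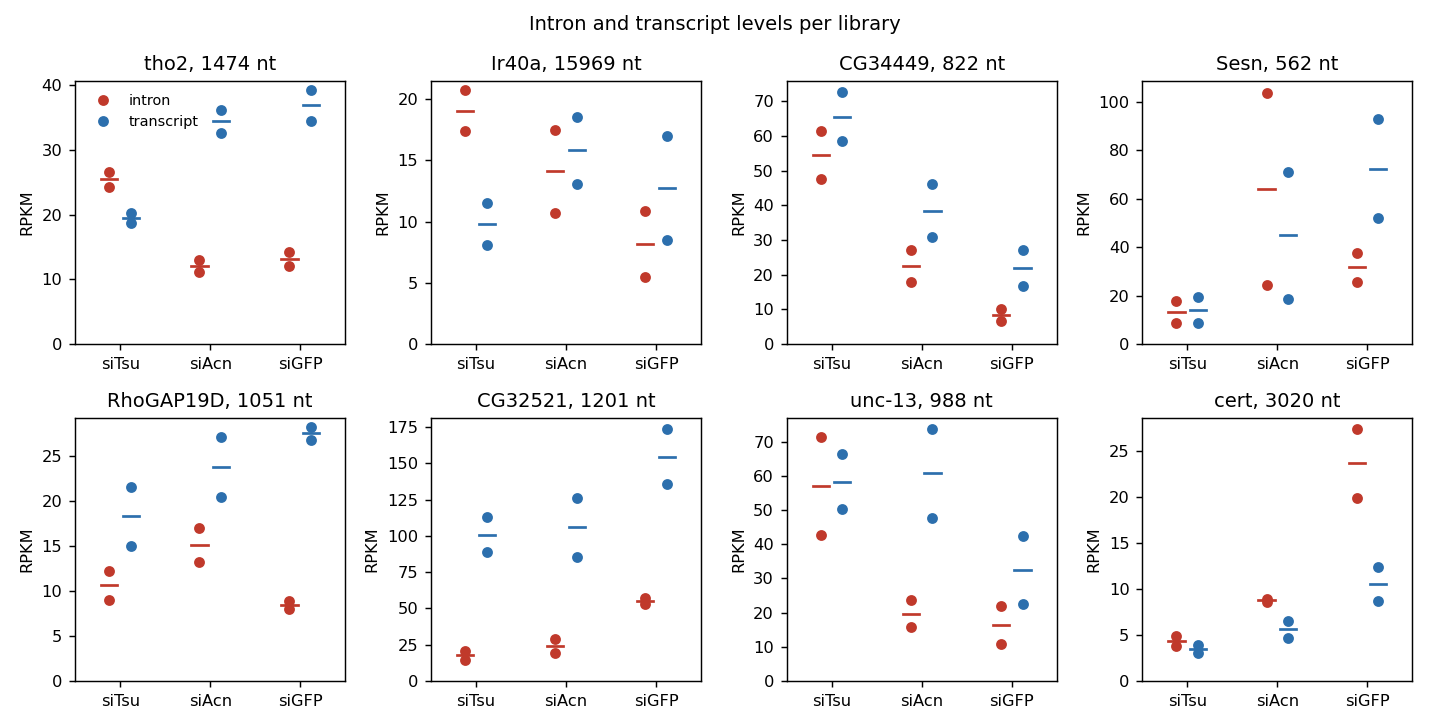
Level of the intron (red) and of its transcript (blue) in RPKM for 8 retained introns, 1 point per library in siTsu, siAcn and siGFP cells with the mean as a bar. In tho2 the intron lies above its transcript in siTsu libraries only (26.6 and 24.2 against 20.3 and 18.8 RPKM), and in cert the intron is lower in both knockdowns than in siGFP cells.

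Other loci differed between siTsu and siAcn cells without passing the test. Caps encodes the calcium-dependent activator of vesicle secretion, also on chromosome 4, and had 2 retained loci whose index was low in siAcn cells. Its second intron of 1168 nt was at 192% and 131% in siTsu, 56.4% and 55.2% in siAcn and 157% and 119% in siGFP libraries. Its first intron of 938 nt was at 57.9% and 39.8% in siTsu, 13.4% and 18.5% in siAcn and 42.0% and 30.8% in siGFP libraries. For both, the siAcn libraries lay below the other 4, and the difference from siGFP cells did not pass (adjusted p = 0.078 and 0.103 from limma). The Caps transcript, the denominator of this index, was lower in siTsu than in siAcn cells (log2 difference -1.80, adjusted p = 0.0071 from limma). The order of the groups in the index is therefore not the order of the intron's own level. A higher index in siTsu than in siAcn cells without overlap was also found for stj, which encodes a calcium channel subunit, with 51.1% and 36.7% in siTsu, 18.2% and 17.1% in siAcn and 33.0% and 34.2% in siGFP libraries. For rpk, a gene of the DEG/ENaC channel family, the index was 60.3% and 50.3% in siTsu, 14.6% and 22.3% in siAcn and 26.2% and 26.6% in siGFP libraries. For syd, which encodes an adaptor of kinesin transport, it was 50.8% and 83.3% in siTsu, 18.5% and 25.3% in siAcn and 30.4% and 34.3% in siGFP libraries. The opposite order was found for l(1)G0196, with 32.4% and 43.3% in siTsu, 76.4% and 69% in siAcn and 31.6% and 44.6% in siGFP libraries.

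Counted by mean index, 13 of the 173 loci were at least 2-fold higher in siTsu than in siAcn cells and 2 were at least 2-fold lower, where 14.9% and 12% of all tested introns were. The libraries of these groups did not overlap for 44 loci with siTsu higher and 40 with siTsu lower, against 21.6% and 26% of all tested introns. These shares of the loci are 25.4% and 23.1%. Against siGFP cells, 48 loci were higher and 52 lower without overlap in siTsu, where 25.7% and 24.1% of all tested introns were, and 33 were higher and 67 lower in siAcn, where 27.6% and 23.8% were. A fall against siGFP is favoured for introns chosen by high siGFP values, and nothing is read from the last counts.

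Among the loci with the steepest falls in both knockdowns was CG31211, in which all 4 loci had lower values in both. Its intron of 430 nt was at 21.8% and 23.1% in siTsu, 24.3% and 18.2% in siAcn and 62.6% and 38.4% in siGFP libraries. Its level fell in both knockdowns (log2 changes -1.37 and -1.73, adjusted p = 0.032 and 0.026 from limma), while the index did not pass (adjusted p = 0.096 and 0.093 from limma). The last intron of CG34347, 2713 nt long, was at 22.4% and 18.0% in siTsu, 25.8% and 18.7% in siAcn and 43.6% and 42.8% in siGFP libraries (adjusted p = 0.066 and 0.108 from limma). Rises in both knockdowns that missed the threshold were found for Tomosyn, which encodes a SNARE-binding inhibitor of secretion, with 51.9% and 50.1% in siTsu, 57.3% and 67.5% in siAcn and 26.3% and 31.5% in siGFP libraries (adjusted p = 0.09 and 0.054 from limma). The first intron of CG13937 was at 91.6% and 85.4% in siTsu, 87.6% and 105% in siAcn and 39.7% and 50.2% in siGFP libraries (adjusted p = 0.07 and 0.063 from limma).

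Retained introns were counted in listed genes of RNA metabolism and of the cell type, among the genes above 10 RPKM in siGFP cells, since the rule could take no others. Over all 5210 genes above this level that have listed introns, 155 (2.98%) held one. The list counts below did not require a listed intron, so they can include genes that could hold none. Of 41 SR proteins and splicing regulators, 3 held one, among them Rm62 and mub. The intron of Rm62, which encodes a DEAD-box RNA helicase, has 96 nt and was at 36.3% and 33.4% in siTsu, 38.3% and 28.4% in siAcn and 54.4% and 63.6% in siGFP libraries. All knockdown libraries were below the siGFP libraries, and no comparison passed the test (the lowest adjusted p was 0.122 from limma). The last intron of mub, which encodes a KH-domain RNA-binding protein, was at 40.5% and 33.7% in siTsu, 36.9% and 36.7% in siAcn and 35.3% and 48.1% in siGFP libraries, with overlap throughout. Of 13 genes of mRNA export and nuclear retention, 2 held a retained intron. Beside tho2 this was sbr, which encodes the export receptor NXF1, with an intron of 1602 nt (X, 10728951 to 10730552) at 57.0% and 57.4% in siTsu, 68.6% and 59.0% in siAcn and 65.5% and 58.3% in siGFP libraries. This index lay between 57.0% and 68.6% in all 6 libraries and rested on 2845 reads in the siGFP libraries.

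CTCF, which encodes an insulator protein, was the only one of 21 chromatin regulators on the list with a retained intron, and br the only one of 10 markers of OSCs and follicle cells. The CTCF intron had 75 siGFP reads and an index of 33.3% and 50.5% in siTsu, 14.4% and 29.7% in siAcn and 30.8% and 30.7% in siGFP libraries. The br intron was at 28.4% and 19.0% in siTsu, 24.3% and 18.0% in siAcn and 38.3% and 29.7% in siGFP libraries. Of the genes above 10 RPKM, none of the 7 listed EJC and ASAP subunits, 24 snRNP and core spliceosome proteins, 5 factors of nonsense-mediated decay, 14 genes of the somatic piRNA pathway, 13 translation factors, 15 small GTPases and their regulators or 81 ribosomal proteins held a retained intron. For each of these lists but the ribosomal proteins, the share over all genes gives less than 1 such gene. Only 1 germline marker was above 10 RPKM, and it held none. The lists are not complete, and retained introns were found in genes outside them with related roles, such as RhoGAP19D, the small GTPase genes Rab27 and Miro, and AGO1, which encodes the Argonaute protein of the microRNA pathway.

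The level of the introns themselves was tested beside the index. Between siTsu and siGFP cells, limma on log2(RPKM + 0.1) called 4 of the 295 introns higher, in CG34449 and unc-13, and 32 lower in 20 genes, where 2.53% of all tested introns were higher and 3.58% lower. Between siAcn and siGFP cells, 2 were higher, in 1 gene, and 5 were lower, in 3 genes, where 2.07% were higher and 0.246% lower. With the libraries centred on the median gene, the siTsu calls among the retained introns were 7 higher and 26 lower, and those among all tested introns 95 higher and 89 lower in place of 72 higher and 102 lower. The intron of nab, which encodes a transcriptional cofactor, fell by 3.24 on the log2 scale in siTsu cells (adjusted p = 0.0026 from limma). The nab transcript fell alike, and the index of 37.2% and 45.1% in siTsu, 26.6% and 23.4% in siAcn and 37.5% and 30.6% in siGFP libraries overlapped between siTsu and siGFP. In cert, the intron fell by 2.42 in siTsu (adjusted p = 0.0028 from limma) and by 1.40 in siAcn cells (adjusted p = 0.042 from limma).

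Many host transcripts were lower after tsu depletion. Of the 155 host genes, 19 fell and 2 rose in siTsu cells by limma on log2(RPKM + 1) over 7362 genes, where 2.46% of all tested genes fell and 1.22% rose, and 2.75% of the tested genes above 10 RPKM in siGFP cells fell. The median log2 change was -0.31 over the host genes, -0.10 over tested genes above 10 RPKM and -0.09 over all tested genes. A gene level above 10 RPKM in siGFP cells was part of the rule, and the transcript is the denominator of the index, so these falls and a high index in siTsu cells are not separate measurements. In siAcn cells 0 host genes passed in either direction, where 0.0543% of all tested genes rose and 0.0136% fell. Without adjustment 10 were higher and 23 lower at a p under 0.05 in limma, against 3.29% and 4.32% of all tested genes. Between siTsu and siAcn cells, a comparison added after the data had been seen, 6 host genes were lower in siTsu cells and 0 were higher, where 0.638% of all tested genes were lower and 0.367% higher. They were Caps, CG17816, CG31619, nab, Spn77Bc and ZnT41F, and the median log2 difference was -0.24 over all 155 host genes and -0.03 over all tested genes. Without either siTsu library or either siGFP library, between 1 and 4 host genes passed in siTsu against siGFP cells, and without 1 of the 6 libraries between 0 and 3 passed in siTsu against siAcn cells.

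The most lowered host transcript was that of nab, with 4.6 and 2.3 RPKM in siTsu, 18.8 and 17.0 RPKM in siAcn and 39.7 and 39.0 RPKM in siGFP libraries (log2 change -3.24 with a standard error of 0.25, adjusted p = 0.0079 in limma). The Caps transcript was at 7.1 and 7.4 RPKM in siTsu, 28.6 and 26.9 RPKM in siAcn and 22.4 and 20.2 RPKM in siGFP libraries (log2 change -1.43 in siTsu, adjusted p = 0.0083 from limma). ZnT41F, a zinc transporter gene, was at 9.8 and 8.9 RPKM in siTsu, 29.0 and 25.6 RPKM in siAcn and 27.6 and 23.3 RPKM in siGFP libraries (adjusted p = 0.0142 from limma). For Caps and ZnT41F, siAcn cells were at or above siGFP cells, whereas for nab they lay between the other groups. Other falls in siTsu cells were those of Dscam3, a gene of the Dscam family of adhesion proteins (log2 change -1.10), of the kinase gene slik (-0.90), of the histone demethylase gene Kdm4B (-0.87) and of the nuclear receptor gene ftz-f1 (-0.65). The 2 host transcripts that rose were those of CG34449 and of CG10019, which was at 24.0 and 23.6 RPKM in siTsu, 19.6 and 21.7 RPKM in siAcn and 10.8 and 13.1 RPKM in siGFP libraries.

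**Figure D5:**
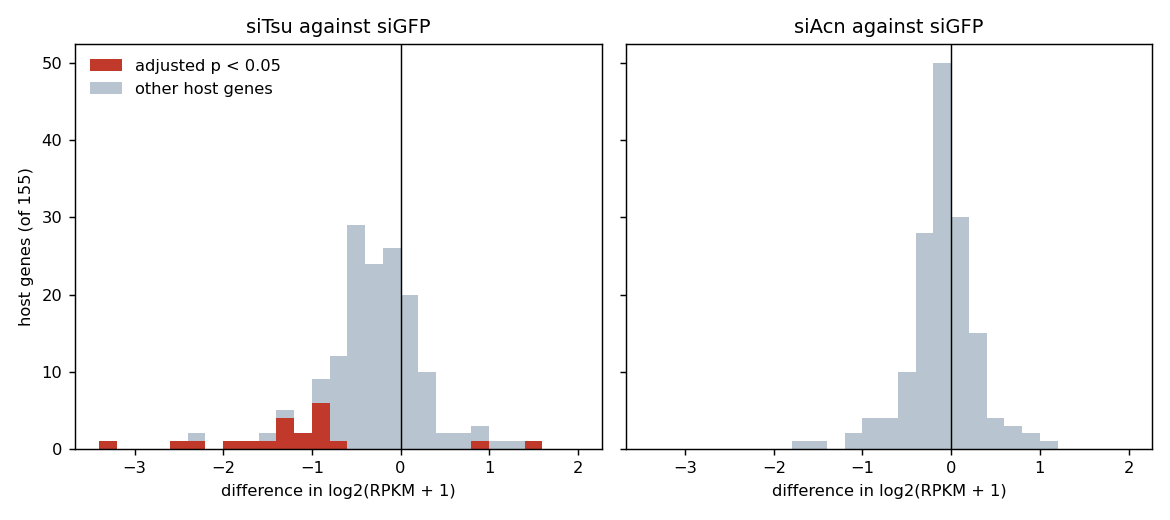
Difference in log2(RPKM + 1) of the 155 host transcripts in siTsu against siGFP (left) and siAcn against siGFP cells (right), as counts of genes per bin. Transcripts past limma at an adjusted p under 0.05 are red, 19 lower and 2 higher in siTsu and 0 in siAcn cells.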

How the data were processed

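The authors trimmed each paired-end read, mapped it with few mismatches to the dm3 genome, FlyBase transcripts and FlyBase introns, and counted unique hits. The submitters' processing notes name Bowtie and GSNAP, without versions. From these counts the authors deposited RPKM values for 8335 genes and 60779 introns, with 1 column for each of the 6 polyA libraries, all used. Libraries made by rRNA depletion are not analysed here. The strand setting of the counting is not given in the sources used here, so reads of overlapping genes may be mixed. Each listed interval includes 35 nt of exon at both ends, left out of the positions and lengths given. Later annotation (BDGP6) was matched by gene, strand and intron length only.

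Introns above 10% of their transcript in at least 1 library (2848, in genes above 10 RPKM) and genes averaging at least 1 RPKM (7362) entered limma 3.58.1 (R 4.3.3, moderated variances with a trend on mean level), with all 3 groups of 2 libraries fitted together, on log2((intron + 0.1)/(transcript + 0.1)), log2(intron RPKM + 0.1) and log2(transcript RPKM + 1), at a Benjamini-Hochberg adjusted p under 0.05. The scripts were tested on simulated data. Other steps used Python 3.11.15, numpy 2.4.6, pandas 2.3.3 and matplotlib 3.10.9. Intervals for counting error were not computed, and p-values cover only the spread between libraries. Loci were named by a rule that takes the 12 highest siGFP indices with at least 50 reads per siGFP library, every intron past a test of the index, the 8 largest rises and falls per comparison without overlap, the introns nearest the threshold, members of 17 gene lists, the 5 genes with most rows and the 3 longest and shortest loci; some are given as counts only. The lists of snoRNA hosts, long noncoding RNAs and fat body markers matched no measured gene. The members and lists were chosen with earlier results of these data known. Alternatives varied the pseudocounts, filters, scaling, samples in the fit, a replicate block and single libraries.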

Additional observations from a re-analysis of the deposited data

Results flagged for a closer look

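The index of 3 retained introns differed between siTsu and siAcn cells by the direct test in limma. In tho2, the forms of 1474 and 1471 nt each had a log2 difference of 1.88, with 131% and 129% in siTsu and 35.8% and 34.4% in siAcn libraries for the longer form. In unc-13, the intron of 988 nt had a log2 difference of 1.55, with 108% and 85.2% in siTsu and 33.1% and 31.9% in siAcn libraries. The 2 forms of tho2 share nearly all their reads and are not separate observations.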

How the results depend on the processing

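Counts of retained introns past the test of the index were 11 for siTsu against siGFP, 4 for siAcn against siGFP and 3 for siTsu against siAcn. With no 10% minimum, and with no trend in limma, each of the 3 fell to 0. With only the 4 libraries compared, they were 2, 0 and 0, where fewer samples set the spread. With genes over 20 RPKM, where fewer introns were tested, they were 21 (14 higher and 7 lower), 14 (8 higher and 6 lower) and 5 (all higher), in place of 10 higher and 1 lower, 4 higher and 3 higher. With the minimum of 10% met in a siGFP library, the first was 6, and with 0.5 RPKM added the third was 6. Without 1 library, they ranged from 0 to 2, from 0 to 0 and from 0 to 0.

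For the intron level, the main counts of 36 in siTsu and 7 in siAcn ranged from 0 to 6 and from 0 to 0 without 1 library, and 0.5 RPKM added gave 19 in siAcn. For host transcripts, the 21 in siTsu ranged from 1 to 26, the 0 in siAcn stayed at 0, and the 6 in siTsu against siAcn ranged from 0 to 3 without 1 library and were 3 with no filter on low values. Where calls changed on leaving out a library, the cause was not tested. Among all tested genes, centring on the median gene gave 113 higher and 144 lower in siTsu cells in place of 90 and 181.

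In the index, libraries with the same replicate number deviated together only weakly over 2848 introns. The correlation r was 0.038 for siTsu with siAcn, 0.061 for siTsu with siGFP and 0.093 for siAcn with siGFP. The numbers were therefore not taken to pair the samples in the main fits. Intron and transcript levels were not checked in this way, so these r values do not settle the choice for them. With the replicate block, the index counts were 7, 4 and 2, and the level counts 71 in siTsu and 29 in siAcn. The host transcript counts were 76 in siTsu, 16 in siAcn and 35 in siTsu against siAcn. Among all tested genes, the block gave 671 higher and 1188 lower in siTsu cells in place of 90 and 181. The level and transcript counts thus depend on this choice.

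The rule itself took 452 introns at an index over 20%, 91 over 50%, 174 in genes over 20 RPKM and 50 that overlap no other listed intron, in place of 295. Over the other alternatives the counts stayed within 1.5-fold. The introns called for their index were followed through 269 refits, and most of these did not keep an adjusted p under 0.05. No log2 change turned its sign. Many refits alter only the spread or the introns tested and leave the log2 change as it was. The introns were also chosen by this same test, and several are forms that share reads, so nothing is read from the unchanged sign.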
